A study of Bos taurus with 90 samples.

Results

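miR-148a, miR-148b and miR-152 form a family of small regulatory RNAs that share a seed, the stretch near the 5′ end through which a microRNA (miRNA) recognises its target mRNAs. The members were taken by name from the deposited expression tables. All 3 were found among the 388 miRNAs listed in any tissue, and all 3 were among the 289 listed in every tissue. Small RNA was sequenced from mammary gland, liver, duodenum, jejunum and rumen epithelium of 18 mid-lactation Chinese Holstein dairy cows. The forage was alfalfa hay, corn stover or rice straw, with 6 cows per diet, which gave 90 samples in all, 18 per tissue and 6 per tissue and diet. Values are CPM, the reads of a miRNA per 1000000 reads that mapped to annotated miRNAs of the same library. RNA came from pieces of tissue, and the rumen, duodenum and jejunum samples were labelled as epithelium. In such pieces fewer cells of a type and less of a miRNA per cell cannot be told apart.

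A miRNA acts as a guide in the RNA-induced silencing complex and lowers the stability or translation of mRNAs that pair with its seed, so members with the same seed can bind overlapping sets of targets. The family is known for targeting the maintenance DNA methyltransferase DNMT1. miR-148a is in addition known as one of the most abundant miRNAs of milk and as a regulator of lipid genes in liver, among them the cholesterol exporter ABCA1. The genes of the members lie apart. In the RefSeq annotation of the bovine assembly ARS-UCD2.0, MIR148B lies within COPZ1 and MIR152 within COPZ2, a pair of paralogous genes for coatomer subunits. MIR148A lies within no protein-coding gene and has NFE2L3 and NPVF as its nearest protein-coding neighbours. The annotation also places MIR148D over MIR148A and MIR148C over MIR152, and neither miR-148c nor miR-148d was listed in any of the tables. The alignment by the authors allowed mismatches and several mappings per read. Reads may therefore have been shared between members with similar sequences, which limits how sharply their values can be separated.

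The libraries held between 937556 and 15621501 miRNA reads, with a median of 5778304.5. Tissue identity was checked against marker miRNAs. The hepatocyte miRNA miR-122 was between 8671 and 12721 CPM in liver, at most 48.5 CPM in mammary gland and not listed in the other tissues. miR-192, a miRNA of intestinal and hepatic epithelium, had a median of 259385 CPM in duodenum and 192260 CPM in jejunum against 2759 CPM in rumen. miR-205, a miRNA of stratified epithelium, had a median of 32788 CPM in rumen and 2744 CPM in mammary gland. No miRNA that defines mammary tissue on its own was among the markers. A few libraries stood apart. In mammary gland, 4 libraries (rice straw 1, 4 and 5 and alfalfa hay 1) had fewer than 3000000 reads, between 937556 and 2624975, and correlated with the median profile of the other libraries at r = 0.942 to 0.966, against 0.973 to 0.996 for the other 14. Mammary gland library 3 of the rice straw cows held 430 CPM of the muscle miRNA miR-1, against at most 12.01 CPM in the other 17, and 15723 CPM of the epithelial miR-200a, against at most 5536 CPM. Another muscle miRNA, miR-133a, lay within the range of the others (167 CPM against 22.3 to 233 CPM). So did the sum of 5 secretory epithelium miRNAs that include miR-200a (45143 CPM against 10598 to 67448 CPM). In the same library the sum of 5 smooth muscle and stromal miRNAs (231973 CPM against at most 214643 CPM) lay above the other 17. miR-122 did as well (48.5 CPM against at most 34.8 CPM). In liver, alfalfa hay library 2 held 1525 CPM of miR-205, against at most 12.997 CPM in the other 17, and its miR-148a of 83368 CPM was the lowest of the tissue.

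miR-148a was by far the most abundant member in every tissue. Its level was highest in mammary gland and liver, intermediate in duodenum and jejunum and lowest in rumen. In mammary gland it was 135420 ± 38397 CPM (SD, n = 18), with a lowest value of 86639, a median of 124649 and a highest of 216977 CPM. In liver it was 104301 ± 12274 CPM (SD, n = 18) and ranged from 83368 to 120485 CPM around a median of 105695. These ranges overlapped, although 11 of the 18 mammary gland samples lay above every liver sample. miR-148a thus made up 13.5% ± 3.84 (SD, n = 18) of all miRNA reads in mammary gland and 10.4% ± 1.23 (SD, n = 18) in liver. It was the most abundant miRNA in 8 of the 18 mammary gland samples and stood between ranks 1 and 4 in all of them, and between ranks 2 and 5 in liver. In duodenum it was 39280 ± 5848 CPM (SD, n = 18; lowest 25217, median 39657, highest 48811). In jejunum it was 30488 ± 8538 CPM (SD, n = 18; lowest 18173, median 31829, highest 48041). The ranges of these neighbouring gut segments overlapped, although 6 of the 18 jejunum samples lay below every duodenum sample and 1 duodenum sample lay above every jejunum sample. In rumen miR-148a was 12237 ± 2408 CPM (SD, n = 18; lowest 6891, median 12844, highest 15478), where it stood between ranks 13 and 22. No rumen sample reached the lowest jejunum sample, and no duodenum or jejunum sample reached the lowest liver sample.

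miR-148b, a member with the same seed at a far lower level, followed another order. It was lowest in liver, at 463 ± 53.5 CPM (SD, n = 18; lowest 397, median 458, highest 626). It was highest in rumen, at 943 ± 156 CPM (SD, n = 18; lowest 730, median 943, highest 1383). Duodenum (795 ± 109 CPM), jejunum (798 ± 161 CPM) and mammary gland (792 ± 346 CPM; SD, n = 18 each) lay between them with nearly equal means. The mammary gland samples ran from 449 to 1598 CPM with a median of 668, and so covered nearly the whole range of the other tissues. Every liver sample lay below every duodenum and every rumen sample, and 17 of 18 lay below every jejunum sample.

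miR-152, the third member, was the least abundant in most samples and highest in liver. There it was 382 ± 64.0 CPM (SD, n = 18; lowest 272, median 381, highest 510). In mammary gland it was 329 ± 332 CPM (SD, n = 18; lowest 149, median 259, highest 1639). The SD there was as large as the mean because rice straw library 3 held 1639 CPM, while the other 17 lay between 149 and 361 CPM. Duodenum (190 ± 37.4 CPM), jejunum (167 ± 45.3 CPM) and rumen (138 ± 50.1 CPM; SD, n = 18 each) were lower and overlapped one another. Every liver sample lay above every duodenum and jejunum sample.

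**Figure D1:**
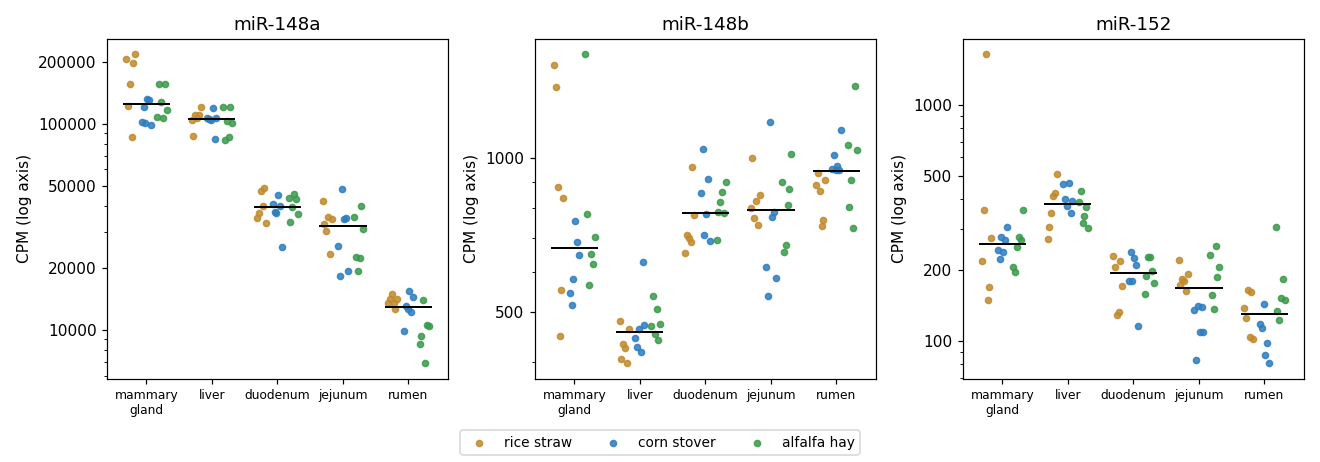
CPM of miR-148a, miR-148b and miR-152 in each of the 90 samples on log axes, by tissue on the horizontal axis and by diet in colour, with a black line at the median of the 18 samples of a tissue. miR-148a ran from a median of 124649 CPM in mammary gland to 12844 CPM in rumen, miR-148b was lowest in liver (458 CPM) and miR-152 was highest there (381 CPM).

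The composition of the family differed between tissues accordingly, and this comparison within a library does not depend on how libraries are scaled. Of the reads of the 3 members, miR-148a took 99.2% ± 0.138 (SD, n = 18) in liver, 99.2% ± 0.357 in mammary gland, 97.5% ± 0.407 in duodenum, 96.8% ± 0.594 in jejunum and 91.6% ± 2.31 in rumen. miR-148b took 7.31% ± 1.83 (SD, n = 18) in rumen against 0.450% ± 0.103 in liver. The number of miR-148a reads per miR-148b read had a median of 233 in liver (lowest 134, highest 285), 181 in mammary gland (67.8 to 357), 51.3 in duodenum (35.9 to 67.6), 39.4 in jejunum (27.7 to 52.7) and 13.1 in rumen (7.64 to 18.4). The rumen samples lay below all samples of the other tissues in this ratio, and all liver samples lay above all gut samples. miR-148b exceeded miR-152 in every duodenum, jejunum and rumen sample, by a median of 4.34, 4.61 and 7.20 times. In liver the median was only 1.22, and miR-152 exceeded miR-148b in 4 of 18 liver samples and in 1 of 18 mammary gland samples, the rice straw library 3. These ratios are descriptions and carry no test. Adapter ligation can differ between miRNAs, so a ratio of reads is not a ratio of molecules.

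**Figure D2:**
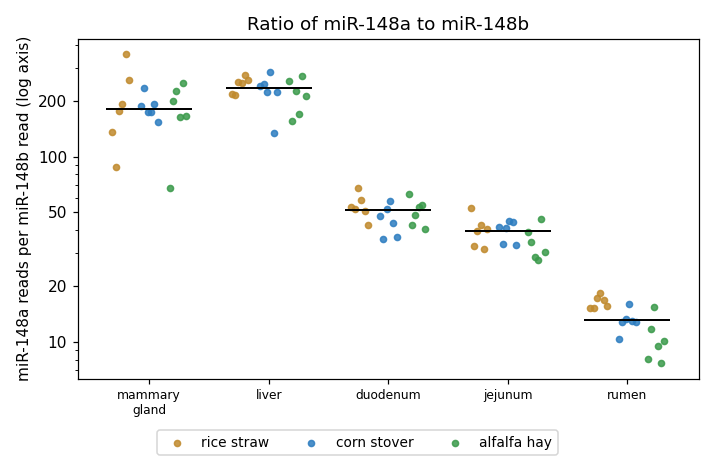
Number of miR-148a reads per miR-148b read in each of the 90 samples on a log axis, by tissue and diet, with a black line at the median of the 18 samples of a tissue. The medians ran from 233 in liver to 13.1 in rumen, and no rumen sample (highest 18.4) reached the lowest jejunum sample (27.7).

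The differences between tissues were tested with limma on log2(CPM + 1) over all 289 miRNAs listed in every tissue, for each of the 10 pairs of tissues, at a threshold of 0.05 after Benjamini-Hochberg adjustment. Tissue samples came from the same 18 cows, and the main fit treated them as independent. Most miRNAs differed between most tissues: 69.2% passed for mammary gland against liver, 79.6% against duodenum, 78.5% against jejunum and 82.7% against rumen, 82%, 83% and 82.7% for liver against duodenum, jejunum and rumen, 10% for duodenum against jejunum, and 71.6% and 73.4% for duodenum and jejunum against rumen. A call of a member is therefore near the background in all pairs except duodenum and jejunum, and the sizes carry more information. The median difference of all miRNAs was itself not 0, from -0.47 for liver minus rumen to 0.12 for mammary gland minus liver on the log2 scale, and the differences below are read beside it.

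miR-148a passed in all 10 pairs. Mammary gland exceeded rumen by 3.45 ± 0.11 (SE) on the log2 scale, adjusted p = 2.4e-50. Only 3 of the 289 miRNAs differed more in this direction, and 10 differed more in either direction. Liver exceeded rumen by 3.11 ± 0.11 (SE), with 6 miRNAs above it in this direction and 23 in either. These differences were the largest of the member. Mammary gland exceeded duodenum by 1.75 and jejunum by 2.16, and liver exceeded them by 1.42 and 1.82. Duodenum and jejunum exceeded rumen by 1.70 and 1.29. Between duodenum and jejunum the difference was 0.40 ± 0.11 (SE), adjusted p = 0.0078, in a pair in which 29 miRNAs passed. The order of mammary gland over liver was not firm. The difference was 0.34 ± 0.11 (SE) with an adjusted p of 0.0038 on the deposited CPM, but it was 0.23 (adjusted p = 0.16) after trimmed-mean (TMM) scaling, which sets aside the most different miRNAs, and -0.06 (adjusted p = 0.71) after upper-quartile scaling.

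miR-148b passed in 7 of the 10 pairs. Liver was lower than duodenum by 0.77, than jejunum by 0.76 and than rumen by 1.01 ± 0.11 (SE; adjusted p at most 8.9e-10 in each), and mammary gland exceeded liver by 0.68. Under upper-quartile scaling these 4 differences kept their direction at 0.22 to 0.30 but did not pass. Rumen exceeded mammary gland by 0.34, duodenum by 0.24 and jejunum by 0.25 on the deposited CPM, close to the median differences of all miRNAs in the same pairs. None of these 3 passed after TMM scaling, where their sign turned. Mammary gland minus duodenum was -0.09 (95% interval -0.31 to 0.12), mammary gland minus jejunum -0.09 (-0.30 to 0.13) and duodenum minus jejunum 0.01 (-0.21 to 0.22), and none of these passed.

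miR-152 passed in 8 of the 10 pairs. Liver exceeded duodenum by 1.01, jejunum by 1.22 and rumen by 1.51 ± 0.15 (SE), and mammary gland exceeded the same tissues by 0.55, 0.76 and 1.05. Duodenum exceeded rumen by 0.49 (adjusted p = 0.0030). Mammary gland was lower than liver by 0.46 ± 0.15 (SE; adjusted p = 0.0058), a difference of -0.57 (adjusted p = 6.2e-04) after TMM scaling and of -0.86 (adjusted p = 1.1e-06) after upper-quartile scaling. It was -0.30 (adjusted p = 0.077) without the 4 mammary gland libraries under 3000000 reads. The difference between duodenum and jejunum was 0.21 (95% interval -0.10 to 0.51) and that between jejunum and rumen 0.29 (-0.02 to 0.59). Jejunum minus rumen passed after TMM scaling (0.57, adjusted p = 7.2e-04), after upper-quartile scaling (0.45, adjusted p = 0.0083), and without the mammary gland rice straw library 3 (adjusted p = 0.033), which leaves the difference itself as it is.

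**Figure D3:**
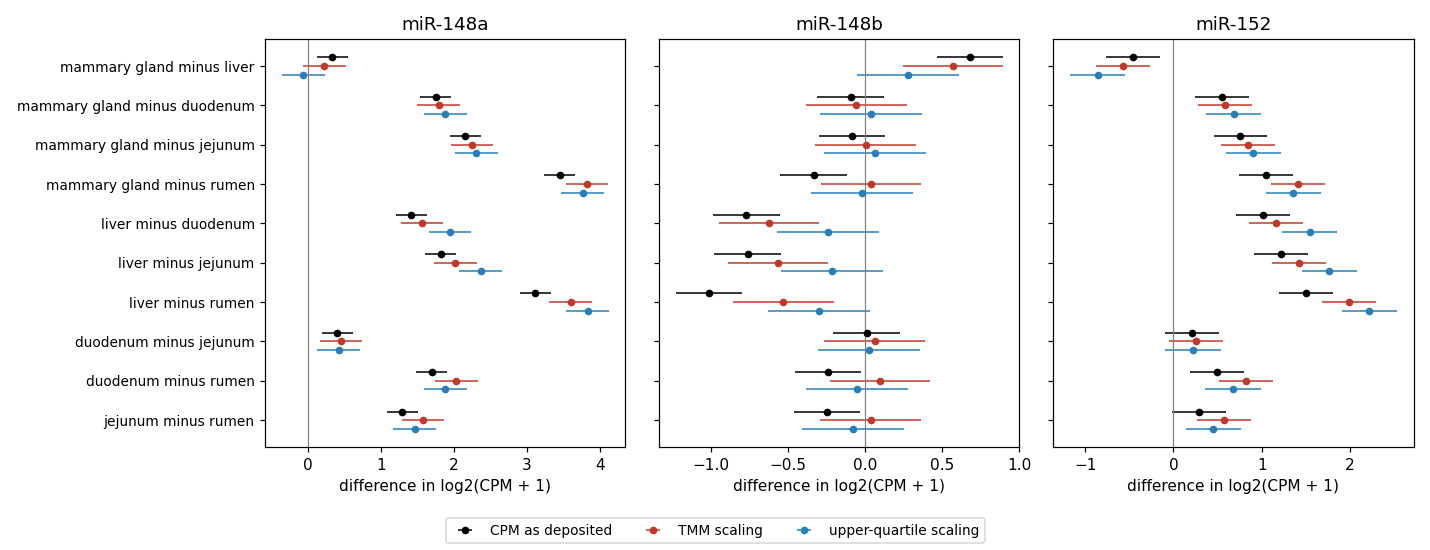
Differences in log2(CPM + 1) between tissues for each member, with 95% confidence intervals from limma, on the CPM as deposited (black), after TMM scaling (red) and after upper-quartile scaling (blue). For miR-148a only mammary gland minus liver changed side with the scaling (0.34, 0.23 and -0.06), whereas miR-148b differences against rumen shrank or changed sign.

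Other miRNAs known from milk were set beside miR-148a. Of 14 such miRNAs, among them let-7a-5p, let-7f, miR-21-5p, miR-141, miR-200c and miR-375, 10 passed as higher and 1 as lower in mammary gland than in liver, with a median difference of 1.16 on the log2 scale against 0.12 over all miRNAs, of which 39.1% were higher and 30.1% lower. Against duodenum 10 of 14 were higher and 2 lower (median 0.91), beside 38.4% higher and 41.2% lower over all miRNAs (median -0.05). Against jejunum 11 were higher and 2 lower (median 0.88), beside 37.7% and 40.8% (median -0.05). Against rumen 6 were higher and 4 lower (median 0.08), beside 32.9% and 49.8% (median -0.34). 3 of the 14, miR-141, miR-200a and miR-200c, are also among the secretory epithelium markers below. The difference of miR-148a was therefore below the list's median against liver and above it against the other tissues, most of all against rumen (3.45).

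Levels of cell type markers also differed between the tissues. The summed level of 5 miRNAs of simple secretory epithelium (miR-141, miR-200a, miR-200b, miR-200c and miR-429) ranged from 10598 to 67448 CPM in mammary gland and from 247 to 1896 CPM in liver, the other tissue with high miR-148a. In rumen, where miR-148a was lowest, it ranged from 12824 to 35851 CPM, against 7520 to 16058 CPM in duodenum and 4714 to 10702 CPM in jejunum. That of 3 red blood cell miRNAs ranged from 1070 to 4241 CPM in mammary gland and from 1154 to 6661 CPM in liver, against at most 2030 CPM in the gut tissues. Its median was 3421 CPM in liver, 1777 CPM in mammary gland, 560 CPM in jejunum, 455 CPM in rumen and 449 CPM in duodenum. Liver and mammary gland, the tissues with the most miR-148a, thus held the highest medians of this list. Smooth muscle and stromal miRNAs summed to 73006 to 231973 CPM in mammary gland, 86852 to 185572 CPM in liver, 109432 to 220351 CPM in duodenum, 152035 to 303638 CPM in jejunum and 122674 to 250750 CPM in rumen. Most of this sum was miR-143, with tissue means of 126623 to 210856 CPM against at most 4912 CPM for another marker of the list. Leukocyte miRNAs summed to at least 16737 CPM in duodenum and jejunum and to at most 11090 CPM in the other tissues, and endothelial miRNAs to 7999.8 to 56065 CPM over all tissues. The part of these cells in the levels of the members was not tested.

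The spread of miR-148a among the mammary gland samples was examined further. Its CV was 28.4% over the 18 samples, against 11.8% in liver, 14.9% in duodenum, 28.01% in jejunum and 19.7% in rumen. Against other miRNAs of the mammary gland this was a small spread, since only 12 of the 246 miRNAs with a mean of at least 10 CPM had a lower CV and their median CV was 48.2%. It was 24.1% without the 4 libraries under 3000000 reads, where the median of all miRNAs was 32.1% and 61 of 251 miRNAs varied less. It rose to 76.7% after upper-quartile scaling, in which 193 of 236 miRNAs varied less. miR-148b had a CV of 43.7%, which rose to 113% after upper-quartile scaling, where 222 of 236 miRNAs varied less. miR-152 had a CV of 101%, above 238 of the 246 miRNAs, and 81.4% after upper-quartile scaling. That of miR-152 rested on rice straw library 3, since its CV was 22.8% in the other 17 libraries, where only 3 of 244 miRNAs varied less.

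The depth of a library is set beside these values because mammary gland held both the shallowest library and one of the deepest. Over the 18 samples no relation of miR-148a to the log of the miRNA reads was detected (Pearson r = -0.08, permutation p = 0.75). Spearman rho was 0.09 (permutation p = 0.72), and r was -0.02 without the 2 libraries farthest from the median depth. Within the diets r was -0.13 for rice straw, -0.37 for corn stover and 0.34 for alfalfa hay (n = 6 each, exact permutation p of 0.48 or more). Without the 2 farthest of each diet it was 0.71, -0.47 and 0.60. A correlation cannot see a spread in both directions. Of the libraries under 3000000 reads, rice straw 4 held the lowest value of the tissue (86639 CPM). Rice straw 1 and 5 held 205801 and 196883 CPM, near the highest (216977 CPM), and alfalfa hay 1 held 108302 CPM. For miR-148b r was -0.31 (permutation p = 0.23) and rho -0.04 (permutation p = 0.88), and r was -0.13 without the 2 farthest. Within corn stover r was -0.98 (exact permutation p = 0.0083, adjusted 0.10), within alfalfa hay -0.95 (exact permutation p = 0.16) and within rice straw 0.32. Without the 2 farthest of each diet these were -0.93, -0.37 and 0.90. For miR-152 r was 0.42 (permutation p = 0.027) and rho 0.53 (permutation p = 0.026), and r was 0.36 without the 2 farthest. Within rice straw r was 0.71 (exact permutation p = 0.033, adjusted 0.13), within corn stover -0.36 and within alfalfa hay 0.48. None of the 12 relations, which comprise 3 members over all samples and within 3 diets, passed after Benjamini-Hochberg adjustment. The smallest adjusted p was 0.10.

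**Figure D4:**
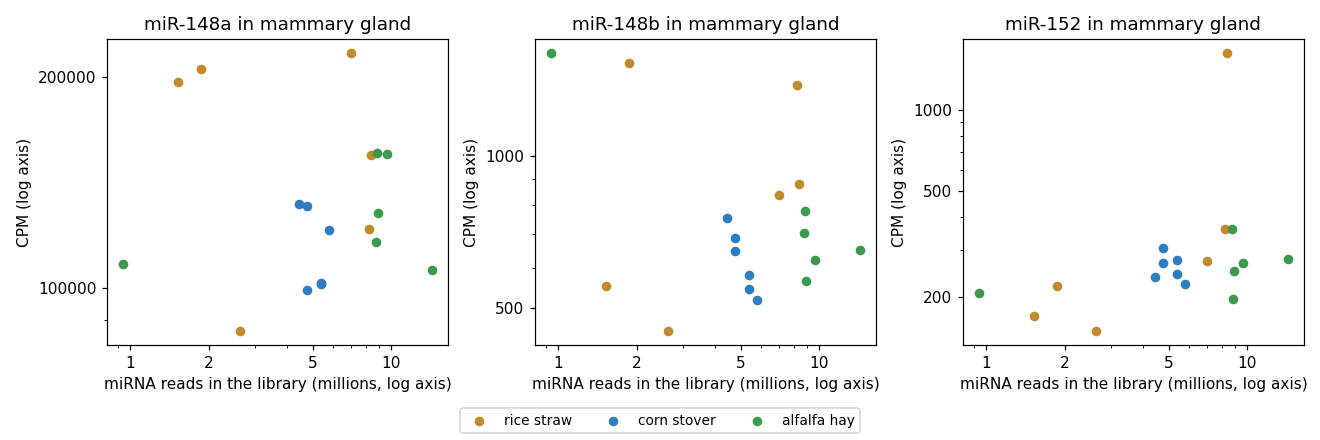
CPM of each member against the number of miRNA reads (axis in units of 1000000) in the 18 mammary gland libraries, both on log axes, coloured by diet. The correlation of miR-148a with depth was r = -0.08, 3 of the 4 libraries under 3000000 reads belonged to rice straw cows, and miR-152 of 1639 CPM stood alone in rice straw library 3.

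Diets were compared within the 18 samples of a tissue by limma's F test over the 3 diets, on all miRNAs listed there, and then in pairs. Of the 15 tests of a member in a tissue, 1 passed, that of miR-152 in jejunum. In liver and duodenum 0% of 326 and 336 miRNAs passed the F test, although 17 and 36 had an unadjusted p under 0.05, and no member stood out there. The 95% intervals of the 3 diet differences of miR-148a lay between -0.19 and 0.28 in liver and between -0.40 and 0.39 in duodenum on the log2 scale. Over all members, tissues and pairs of diets, the 6 samples of one diet lay wholly apart from the 6 of the other in 2 of 45 cases, a share near that of all miRNAs, of which 3.14% lay apart over the same tissues and pairs of diets. They were miR-152 in jejunum and miR-148b in rumen, both for rice straw against corn stover. In that pair of diets 13.4% of miRNAs lay apart in jejunum and 0.597% in rumen, beside 15.5% in mammary gland, 0.307% in liver and 1.19% in duodenum. For corn stover against alfalfa hay the share was 8.63% in jejunum, 5.57% in mammary gland and 0% in the other tissues. For rice straw against alfalfa hay it was 0% in mammary gland, 0.613% in liver, 0.595% in duodenum, 0.298% in jejunum and 0.597% in rumen.

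In jejunum miR-152 was lowest in cows fed corn stover. Its values were 83.6, 109, 109, 136, 139 and 142 CPM there. The alfalfa hay samples held 137, 158, 188, 206, 233 and 254 CPM, and the rice straw samples 163, 173, 180, 183, 194 and 222 CPM. Every corn stover sample lay below every rice straw sample, and 5 of 6 alfalfa hay samples lay above every corn stover sample. The F test gave F = 12.1 and an adjusted p of 0.0035 in a tissue where 23.8% of 336 miRNAs passed, so that a call was not rare. miR-152 was lower on corn stover than on alfalfa hay by 0.70 ± 0.16 (SE) on the log2 scale (adjusted p = 0.0033, 22% of miRNAs passed) and higher on rice straw than on corn stover by 0.65 ± 0.16 (SE; adjusted p = 0.0049, 28.6% passed). The median over all miRNAs was -0.17 and 0.18 in these contrasts. Rice straw and alfalfa hay differed by -0.05 (95% interval -0.38 to 0.28), a pair in which 0% of miRNAs passed limma's test and 18 had an unadjusted p under 0.05. Leaving out any 1 of the 18 libraries kept the adjusted p of F between 0.0011 and 0.014. Corn stover libraries 1, 2, 4 and 6 correlated with the jejunum median profile at r = 0.9823 to 0.9898, below the other jejunum libraries (0.9916 to 0.9964). Corn stover libraries 3 and 5 lay within the range of those others. They held 142 and 139 CPM of miR-152, the highest values of their diet. Leaving out libraries 1, 2, 4 and 6 together was not tested.

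The other members did not follow in jejunum. miR-148a was 28383 ± 8219 CPM on alfalfa hay, 30053 ± 11338.5 CPM on corn stover and 33029 ± 6203 CPM on rice straw (SD, n = 6 each; adjusted p of F = 0.62). miR-148b was 822 ± 139, 744 ± 234 and 829 ± 92.1 CPM in the same order (SD, n = 6 each; adjusted p of F = 0.52). Markers of endothelium moved with miR-152: miR-126-3p and miR-126-5p summed to 8000 to 17708 CPM in the corn stover samples, below all alfalfa hay (18498 to 28030 CPM) and rice straw samples (19516 to 29441 CPM), and both passed in the same 2 pairs of diets. Leukocyte markers summed to 19554 to 30629 CPM on corn stover and 22120 to 33015 CPM on alfalfa hay. In each of the 2 pairs 1 of these 6 passed as lower on corn stover. Stromal markers summed to 188917 to 303638 CPM on corn stover, 152035 to 255298 CPM on alfalfa hay and 158692 to 244106 CPM on rice straw. Of these 5, 1 passed as lower on corn stover in each pair. miR-31, a marker of stratified epithelium, passed as higher on rice straw than on corn stover (2.21). The 3 markers of intestinal epithelium and the 5 of secretory epithelium passed in neither pair. The part of these cells in the level of miR-152 was not tested.

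In rumen no member passed the F test, and the diets overlapped in every pair for miR-148a and miR-152. miR-148a was 13518, 14132, 14856, 13513, 12694 and 14155 CPM in the rice straw samples and 8566, 9391, 13970, 6891, 10562 and 10421 CPM in the alfalfa hay samples, so that 5 of 6 alfalfa hay samples lay below every rice straw sample. Corn stover samples ranged from 9864 to 15478 CPM. The F test gave F = 6.62 and an adjusted p of 0.13 in a tissue where 1.49% of 335 miRNAs passed. Rice straw minus alfalfa hay was 0.50 ± 0.15 (SE; adjusted p = 0.065, 2.69% of miRNAs passed), beside a median of 0.18 over all miRNAs. It was 0.32 (adjusted p = 0.21) after TMM scaling and 0.28 (adjusted p = 0.28) after upper-quartile scaling. The call turned on single libraries. Without alfalfa hay library 3, the highest of its diet, the F test passed (adjusted p = 0.021) and the difference was 0.61 (adjusted p = 0.012), and without alfalfa hay library 2 the difference passed as well (0.49, adjusted p = 0.043), as it did among miRNAs with a mean of at least 10 CPM (0.50, adjusted p = 0.046). Corn stover minus alfalfa hay was 0.40 (adjusted p = 0.16) and passed without alfalfa hay library 3 (0.50, adjusted p = 0.042).

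The alfalfa hay libraries of rumen also differed in other respects. Libraries 1, 4, 5 and 6 correlated with the rumen median profile at r = 0.973 to 0.985, below the other 14 rumen libraries (0.989 to 0.994). Without these 4, which leaves 2 alfalfa hay samples, rice straw minus alfalfa hay of miR-148a was 0.27 (adjusted p = 0.98). Leukocyte miRNAs had a median difference of 0.81 in the same contrast, with 1 of 6 passing as higher, and summed to 6621 to 9995 CPM on rice straw and 3272 to 9807 CPM on alfalfa hay. Secretory epithelium miRNAs summed to 12824 to 19635 CPM on rice straw and 16901 to 35851 CPM on alfalfa hay, with 1 of 5 passing as lower on rice straw. Their part in the level of miR-148a was not tested.

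miR-152 in rumen ran the other way. It was 175 ± 66.6 CPM on alfalfa hay, 107 ± 23.2 CPM on corn stover and 133 ± 27.5 CPM on rice straw (SD, n = 6 each; F = 4.68, adjusted p = 0.17). Alfalfa hay library 1 held 304 CPM, and the other 17 rumen libraries lay between 80.8 and 185 CPM. Corn stover minus alfalfa hay of miR-152 was the largest of its pairs, at -0.66 ± 0.21 (SE; 95% interval -1.11 to -0.21). It did not pass on the deposited CPM (adjusted p = 0.12), where 0% of 335 miRNAs did and their median was 0.12. The difference was -0.80 after TMM scaling, and 5 of 6 corn stover samples lay below every alfalfa hay sample. Rice straw minus alfalfa hay of miR-152 was -0.35 (adjusted p = 0.32), and 0.02 without the 4 alfalfa hay libraries named above, where it did not pass either. miR-148b in rumen was 994 ± 72.8 CPM on corn stover (949.6 to 1134) and 848 ± 81.6 CPM on rice straw (736 to 936; SD, n = 6 each), and its difference of -0.23 ± 0.14 (SE) did not pass (adjusted p = 0.91; 0% of miRNAs passed, 12 had an unadjusted p under 0.05). The number of miR-148a reads per miR-148b read in rumen had a median of 16.2 on rice straw (15.1 to 18.4), 12.9 on corn stover (10.3 to 16.1) and 9.74 on alfalfa hay (7.64 to 15.4).

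In mammary gland no member passed the F test over diets, where 3.72% of 323 miRNAs did. miR-148a had a median of 175900 CPM on rice straw (lowest 86639, highest 216977), 111240 CPM on corn stover (99081 to 131662) and 121990 CPM on alfalfa hay (105994 to 155826). The rice straw samples thus spanned the whole range of the tissue. 3 of them lay above every sample of the other diets and 1 below all of them. The mean was 163784 ± 51980 CPM on rice straw, 114228 ± 15407 CPM on corn stover and 128249 ± 22523 CPM on alfalfa hay (SD, n = 6 each; F = 2.17, adjusted p = 0.30). Rice straw minus corn stover was 0.46 (95% interval -0.00 to 0.92, adjusted p = 0.13) on the log2 scale, in a contrast in which 26.6% of miRNAs passed, 81 of 86 of them as lower, and in which the median of all miRNAs was -0.63. Rice straw minus alfalfa hay was 0.30 (-0.16 to 0.76) and corn stover minus alfalfa hay -0.16 (-0.62 to 0.30), and 0% of miRNAs passed in either, with 33 at an unadjusted p under 0.05 in each.

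The call of this contrast changed with the scaling. Rice straw minus corn stover of miR-148a was 1.17 (adjusted p = 0.044) after TMM scaling and 1.39 (adjusted p = 0.023) after upper-quartile scaling, where 11.1% and 12.7% of miRNAs passed. It was 0.63 (adjusted p = 0.039) on the deposited CPM without rice straw library 4, which holds the lowest value of the tissue. miR-148b differed by 0.47 (adjusted p = 0.31) and miR-152 by 0.27 (adjusted p = 0.67) on the deposited CPM. After TMM scaling the differences were 1.17 (adjusted p = 0.11) and 0.98 (adjusted p = 0.079). After upper-quartile scaling they were 1.40 (adjusted p = 0.068) and 1.20 (adjusted p = 0.036), so that miR-152 passed there. Without the 4 libraries under 3000000 reads, which leaves 3 rice straw samples, the differences were 0.50 for miR-148a (adjusted p = 0.058), 0.70 for miR-148b (adjusted p = 0.014) and 1.08 for miR-152 (adjusted p = 0.056), with 23.5% of miRNAs passing. Without these libraries all 3 members passed after TMM scaling (0.87, 1.08 and 1.45, adjusted p = 0.036, 0.013 and 0.012), where 17% of miRNAs did. They also passed after upper-quartile scaling (1.02, 1.22 and 1.60, adjusted p = 0.014, 0.011 and 0.011), where 16.1% did. Rice straw library 3, with 1639 CPM of miR-152, was 1 of the 3 rice straw samples left. Markers differed between the same diets: the secretory epithelium miRNAs summed to 10598 to 45143 CPM on rice straw and 38600 to 58217 CPM on corn stover, and the stromal miRNAs to 133322 to 231973 CPM and 73006 to 131445 CPM, while leukocyte miRNAs summed to 803 to 9012 CPM and 3936 to 9850 CPM. Most of the stromal sum was miR-143, with a mean of 146172 CPM in mammary gland against at most 2164 CPM for another stromal marker. The median difference of the 5 stromal markers was -0.79 in this contrast, beside -0.63 over all miRNAs. The 14 milk miRNAs summed to 251213 to 329313 CPM on rice straw, below every corn stover sample (333632 to 399598 CPM), and 1 of them passed as lower. As lower on rice straw passed 3 of 5 secretory epithelium, 3 of 6 leukocyte, 2 of 3 red blood cell, 2 of 3 intestinal epithelium, 1 of 2 endothelial and 1 of 5 stromal markers, beside 25.1% of all miRNAs, and 1 stromal marker passed as higher. Their part in the levels of the members was not tested.

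**Figure D5:**
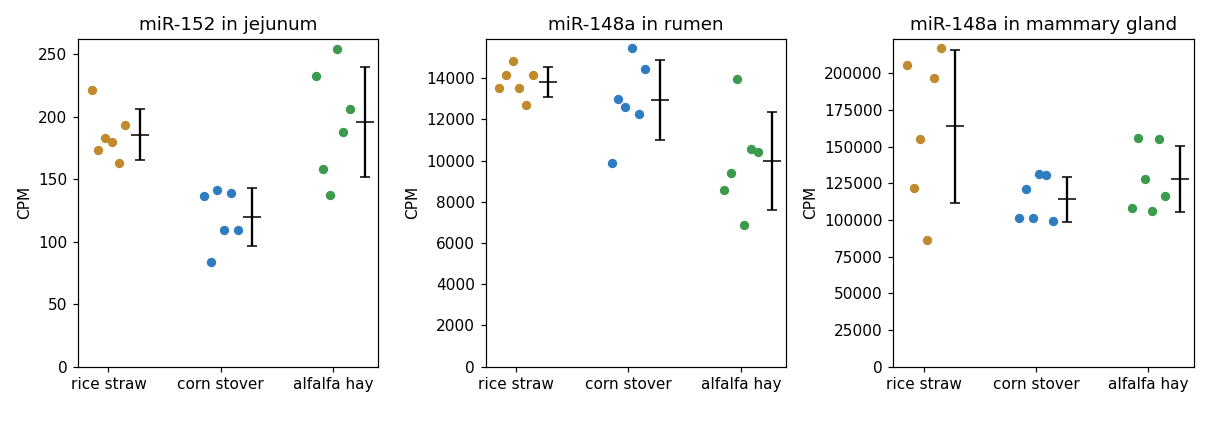
CPM of miR-152 in jejunum, miR-148a in rumen and miR-148a in mammary gland in each sample by diet, on linear axes from 0, with the mean and SD of the 6 samples of a diet beside the points. In jejunum all 6 corn stover samples (at most 142 CPM) lay below all rice straw samples, in rumen 5 of 6 alfalfa hay samples lay below all rice straw samples, and in mammary gland the rice straw samples spanned 86639 to 216977 CPM.

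Whether the effect of diet differed between tissues was tested by the tissue by diet interaction over all 90 samples. On the deposited CPM no member passed, with an adjusted p of 0.36 for miR-148a, 0.36 for miR-148b and 0.19 for miR-152, while 45.7% of 289 miRNAs passed. All 3 members passed after TMM scaling (adjusted p = 0.028, 0.026 and 0.0036) and after upper-quartile scaling (0.0025, 0.0080 and 0.0082). The call therefore depended on the scale. miR-152 also passed without mammary gland rice straw library 3 (adjusted p = 0.015), and miR-148b and miR-152 passed without the 4 shallow mammary gland libraries (0.0060 and 0.0029).

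The miRNAs whose pattern over the 90 samples was most like that of a member were named by the 5 highest Pearson correlations of log2(CPM + 1) among the 289 miRNAs. For miR-148a they were miR-411a (r = 0.81), miR-486 (0.79), miR-139 (0.77), miR-410 (0.74) and miR-2285t (0.72). For miR-152 they were miR-495 (0.76), miR-185 (0.75), miR-369-3p (0.73), miR-148a itself (0.71) and miR-376b (0.70). For miR-148b they were miR-183 (0.81), miR-1271 (0.77), miR-146b (0.76), miR-151-3p (0.76) and miR-99b (0.68). miR-148b thus stood apart from its relatives, at r = -0.47 with miR-148a and -0.42 with miR-152. The 90 points fall into 5 tissues and share libraries, so these values describe differences between tissues above all. Of the miRNAs named, miR-486 is also among the red blood cell markers above, whose part in the level of miR-148a was not tested. Within the 18 mammary gland samples no miRNA came close to miR-148a, where the highest r over 328 miRNAs was 0.45 (miR-6120-3p), and r was 0.32 with miR-148b and 0.09 with miR-152.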

How the data were processed

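The study covered 90 samples, 18 from each of 5 tissues. The authors sequenced the small RNA libraries (base calling with CASAVA 1.8 per the labels), mapped the reads with sRNAbench to precursors of bovine miRNAs, and deposited CPM, the reads of a miRNA per 1000000 reads mapped to annotated miRNAs. The genome build is not given in the sources used here. Each small RNA read is taken as 1 molecule, so no correction for length applies. The deposited CPM were whole multiples of the value of 1 read within 0.02 in every sample, which gave the totals of reads. They set the precision: 3 reads were worth 0.192 CPM in the deepest and 3.20 CPM in the shallowest library, counting error only. No library pair was identical.

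Groups followed the labels. limma 3.58.1 in R 4.3.3 (trend) was fitted on log2(CPM + 1) of miRNAs that every tissue of the fit listed and that exceeded 1 CPM in over 50% of samples in some tissue. Pairs of tissues and the interaction used all 90 samples, with 1 estimate of the spread per miRNA shared by the 5 tissues, and diets the 18 of a tissue. P-values were adjusted by Benjamini-Hochberg over all miRNAs tested, at a threshold of 0.05. Labels do not say which samples came from the same cow. Correlations used 100000 permutations, or all with n = 6 (scipy 1.17.1). The members and the marker and milk lists were chosen with earlier results of these data known. Fits were tested on simulated data. Alternatives were TMM (30% and 5% trimmed) and upper-quartile (75%) scaling, pseudocounts of 0.1 and 5 CPM, other filters, single diets, left-out libraries and a replicate block. No values of the beef cattle or blood samples of the study were used. Mature sequences were not used here.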

Additional observations from a re-analysis of the deposited data

Results flagged for a closer look

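Each group of 6 samples was searched for a value that stood apart from the rest, by the gap to the nearest value relative to the whole range (Dixon's critical value 0.625). Of 45 groups, 5 held such a sample, and chance alone gives about 1 in 20. All were the highest of their group.

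miR-152 was 1639 CPM in mammary gland rice straw library 3, and the next highest of that diet was 361 CPM. In that library miR-148a (154917 CPM) and miR-148b (879 CPM) lay within the range of the other libraries, while miR-1 (430 CPM against at most 12.01) and miR-200a (15723 CPM against at most 5536) lay above all. miR-152 was 304 CPM in rumen alfalfa hay library 1, and the next highest was 185 CPM. There miR-1 (12.03 CPM against at most 2.10) and miR-200a (8327 CPM against at most 4412) were again above the other 17 libraries, and miR-148a (8566 CPM) was within their range. The muscle miRNA miR-133a lay within the range of the other libraries in both cases (167 CPM in mammary gland and 60.4 CPM in rumen). Other markers lay outside the range of the other 17 as well. In the mammary gland library these were the stromal sum and miR-122, given above. In the rumen library the sums of secretory (35851 CPM against at most 30431) and stratified epithelium miRNAs (54759 CPM against at most 50735) were higher. The sums of endothelial (16774 CPM against at least 17139) and milk miRNAs (229477 CPM against at least 257370) were lower there. That miR-152, miR-1 and miR-200a stood high in both libraries was noticed after their values were seen, and no cause was tested.

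miR-148b was 1598 CPM in mammary gland alfalfa hay library 1, the shallowest of all libraries, and the next highest was 778 CPM. It was 626 CPM in liver corn stover library 5, where the next highest was 473 CPM, and 1134 CPM in rumen corn stover library 6, where the next highest was 1014 CPM.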

How the results depend on the processing

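Most results kept their direction and their side of the threshold: of 819 comparisons of a main result with an alternative, 752 did. No pseudocount or filter changed a call among them. Outside them, the stricter filter moved rice straw minus alfalfa hay of miR-148a in rumen past the threshold (0.50). The following did not keep it, with log2 differences and limma's adjusted p, and no cause was tested.

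Upper-quartile scaling ended calls of miR-148b for mammary gland minus liver (0.28), liver minus duodenum, jejunum and rumen (-0.24, -0.22 and -0.30), mammary gland minus rumen (-0.020), duodenum minus rumen (-0.055) and jejunum minus rumen (-0.081). It turned the sign of miR-148a mammary gland minus liver (-0.063) and of miR-148b mammary gland minus duodenum (0.036) and jejunum (0.061). TMM scaling ended miR-148a mammary gland minus liver (0.23) and turned miR-148b mammary gland minus jejunum (0.0019) and minus rumen (0.036), duodenum minus rumen (0.094) and jejunum minus rumen (0.034). miR-152 jejunum minus rumen passed under both (0.45 and 0.57) and without mammary gland rice straw library 3 (0.29). The interaction passed for miR-148a, miR-148b and miR-152 under upper-quartile (0.0025, 0.0080 and 0.0082) and TMM scaling (0.028, 0.026 and 0.0036). The CV of miR-148a in mammary gland rose to 76.7% under upper-quartile scaling.

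With 1 diet at a time, fewer samples entered. On rice straw, calls were lost for miR-148a duodenum minus jejunum (0.29), miR-148b duodenum minus rumen (-0.19) and jejunum minus rumen (-0.033), and miR-152 mammary gland minus liver (-0.25) and jejunum (0.75) and duodenum minus rumen (0.44), and signs turned for miR-148b mammary gland minus duodenum (0.20), jejunum (0.047) and rumen (0.014), miR-148b duodenum minus jejunum (-0.16) and miR-152 duodenum minus jejunum (-0.062). On corn stover, calls were lost for miR-148a mammary gland minus liver (0.13) and duodenum minus jejunum (0.38) and miR-148b duodenum minus rumen (-0.27), and gained for miR-148b mammary gland minus duodenum (-0.42) and miR-152 duodenum minus jejunum (0.66). On alfalfa hay, calls were lost for miR-148a mammary gland minus liver (0.32) and duodenum minus jejunum (0.55), miR-148b mammary gland, duodenum and jejunum minus rumen (-0.34, -0.26 and -0.25), and miR-152 mammary gland minus liver, duodenum and jejunum (-0.48, 0.39 and 0.41) and duodenum minus rumen (0.22), and miR-148b duodenum minus jejunum turned (-0.015).

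Alternatives added after the data were seen left out mammary gland libraries. Without the 4 under 3000000 reads, miR-152 mammary gland minus liver was lost (-0.30), the diet test of miR-148b in mammary gland passed (adjusted p = 0.039, with TMM 0.043, with upper-quartile 0.034), as did that of miR-152 with TMM (0.033) or upper-quartile scaling (0.034) and of miR-148a with upper-quartile scaling (0.034). The interaction then passed for miR-148b (0.0060, with TMM 2.1e-04, with upper-quartile 1.2e-04), for miR-152 (0.0029, 1.0e-05 and 1.1e-04) and, with upper-quartile scaling, miR-148a (0.0063). The interaction of miR-152 also passed without rice straw library 3 (0.015). Without the 4 rumen alfalfa hay libraries of lowest correlation, no call in rumen changed.

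Leaving out each library in turn gave an adjusted p of F for diet between 0.021 (without alfalfa hay library 3) and 0.21 for miR-148a in rumen and between 0.0011 and 0.014 for miR-152 in jejunum, and changed no such F test of another member and tissue. Of the pairs of diets, it moved 3 of miR-148a past the threshold: rice straw minus corn stover in mammary gland (0.63) and, in rumen, rice straw minus alfalfa hay (0.49 and 0.61) and corn stover minus alfalfa hay (0.50).

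With a replicate block, no call among 52 results changed. For pairs of tissues and the interaction, the block joined the same number within a diet. For diets it joined the same number across diets, whose samples came from different cows. In the diet fits it is therefore no check of pairing. The interaction of miR-148a had an adjusted p of 0.35 with the cow as the block. Labels do not say that a number marks a cow. Same-numbered libraries of 2 tissues correlated at a mean r of 0.07 in their deviations from the group means against -0.01 for other numbers, above 0.1 in 82 of 180 pairs, and a library correlated best with its own number in 113 of 360 cases with 6 choices, where an even share is 60. The link was closest for duodenum and jejunum (mean r = 0.20, above 0.1 in 14 of 18 pairs). This is a hint that numbers may mark cows. The block stayed an alternative because not every pair exceeded 0.1, a rule that true pairing need not meet and that cannot decide the question.

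Among the 5 miRNAs most like each member, 3 to 4 were shared under Spearman correlation and 1 to 3 under upper-quartile scaling. Count models on reads recovered from the CPM (edgeR and DESeq2) were planned and not run. Reads were recovered in every library, but 13 of the 90 files hold the 100 values up to 20 times the smallest that were asked for before a count test. Small differences of a member between diets may have been missed with 6 samples per group, and the smallest detectable difference was not estimated.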
